A study of Saccharomyces cerevisiae with 6 samples.

Results

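The cytosolic translation factors of *Saccharomyces cerevisiae* are the proteins that start, extend and end protein synthesis on the ribosome. They were listed by gene symbol as 40 genes, from the cap-binding protein eIF4E (CDC33) to the recycling factor RLI1, and all 40 were found among the 5793 features of the deposited RNA-Seq table. The cells were strain BJ5464, a laboratory yeast that the labels give as an auxotroph lacking URA3. One culture in rich glucose medium (YPD) was grown at 28 °C and split, with 1 part kept as optimal growth and the other held at 37 °C for 20 min as heat shock. Polyadenylated RNA from 3 aliquots of each part gave 6 libraries. Replicates were therefore aliquots of a single culture and not independent cultures.

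The table gave 1 measure of abundance for each gene, the log2 of its mean CPM (reads of the gene scaled to a fixed library total) over the libraries of both groups. All levels below describe this mean of heat-shocked and optimally grown cells. They are relative to a library total, so amounts of RNA per cell cannot be read from them. The authors' fold changes and p-values between the groups were not used here, so heat shock and optimal growth are not compared. With no value per library, no standard deviation, no depth and no test can be given, and the order of genes with neighbouring levels is not established. Because longer genes collect more reads, genes are compared by the mean CPM per kb of coding length, on the log2 scale, here the per-kb level. It ran from -2.15 to 14.12 over 5706 protein-coding genes, with a median of 5.88, and the highest 10% of genes began at 8.34. The untranslated ends of transcripts are not in the annotation and do not enter the length.

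Among strain markers, the alpha-cell genes MF(ALPHA)1 and STE3 had a log2 mean CPM of 9.95 and 7.83, against 3.03 for STE2 and 0.34 for MFA2, which a cells express. URA3, which the labels give as deleted, was listed at a log2 mean CPM of 7.10. Its per-kb level of 7.41 lay above 80.7% of protein-coding genes, which does not match that label. Whether those reads came from a disrupted locus was not tested.

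Translation starts when eIF4E binds the mRNA cap, and the scaffold eIF4G joins it to the helicase eIF4A and to the poly(A)-binding protein. eIF2 brings the initiator tRNA, eIF2B recharges eIF2 with GTP, and eIF3, eIF1, eIF1A and eIF5 hold the scanning complex together and control the choice of start codon. eEF1A then delivers each aminoacyl-tRNA, eEF2 moves the ribosome along, and eEF3 is an additional ATPase that fungi require. eIF5A helps the ribosome through difficult stretches, and eRF1 and eRF3 release the finished chain.

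Most translation factors were abundant transcripts. Their median per-kb level was 8.23, which was 5.08-fold the median of all protein-coding genes. Of the 40 genes, 37 lay above that median and 19 (47.5%) lay in the highest 10% of genes. The exceptions were the eEF3 paralog HEF3 at 2.57 and the eIF5A gene ANB1 at 2.90, both far below the median. The eIF4G2 gene TIF4632, at 5.88, was level with the median. The 40 genes together made up 2.61% of the mean CPM over all features, of which 0.985% came from the 25 initiation factors and 1.34% from the 11 genes of elongation and eIF5A.

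**Figure D1:**
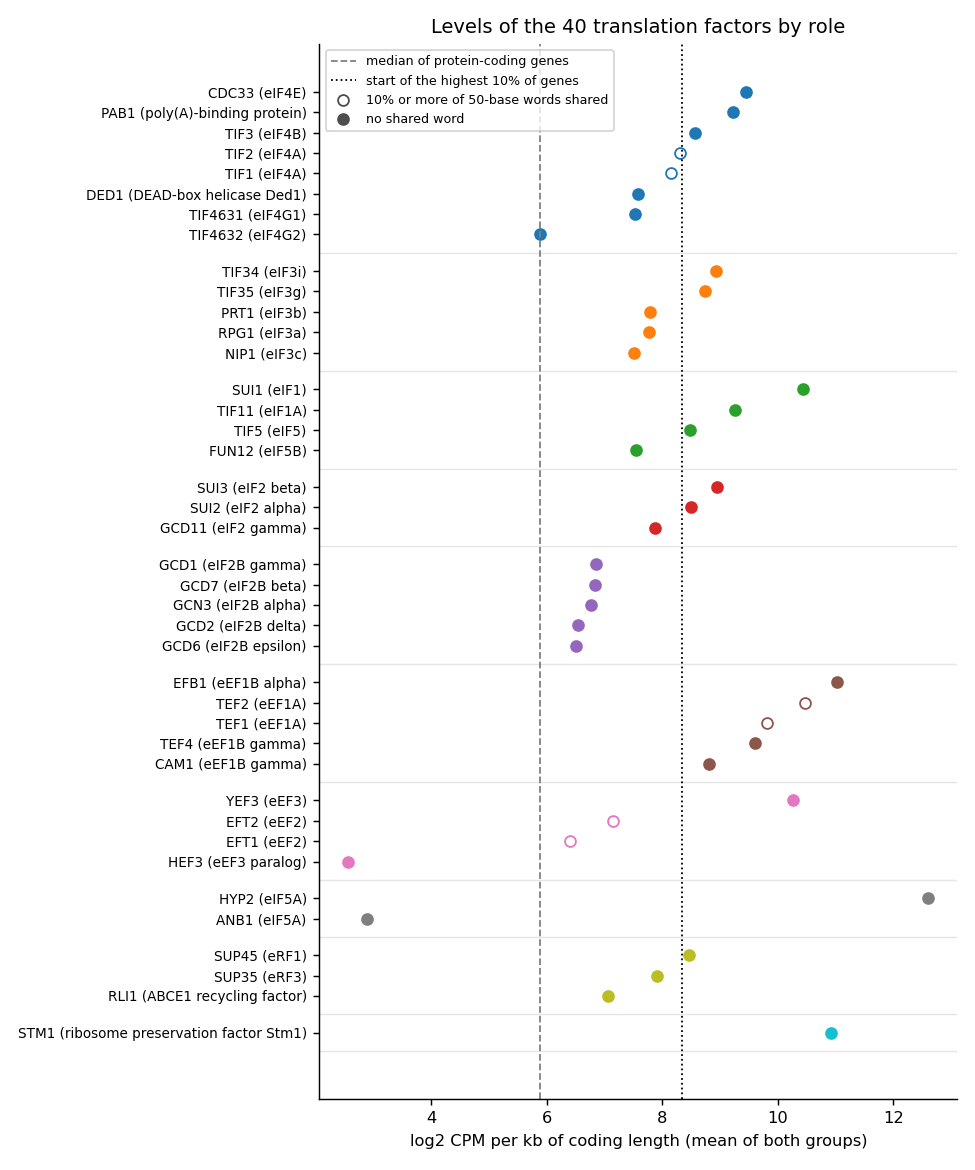
Per-kb level (log2 CPM per kb of coding length, mean of both groups) of each of the 40 genes, coloured by role, with open circles for genes that share 10% or more of their 50-base words with another locus. The genes of eIF2B sit together between 6.51 and 6.86, while HYP2 with ANB1 and YEF3 with HEF3 are the pairs set widest apart; each point is 1 value, so there are no error bars.

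Among the factors that bring mRNA to the ribosome, CDC33 (eIF4E, chromosome XV, 60383 to 61024, minus strand, 1 coding exon) was at a per-kb level of 9.46, the highest of these genes on this scale. PAB1, the poly(A)-binding protein, followed at 9.22. The eIF4B gene TIF3, whose protein stimulates eIF4A, stood at 8.57, and DED1, a DEAD-box helicase needed for scanning, at 7.59. The eIF4G scaffold comes from a pair of genes. TIF4631 was at 7.53 and TIF4632 at 5.88, so TIF4631 was 3.14-fold higher per kb and supplied 76.6% of the CPM of the pair. Their coding sequences matched at 66.8% of aligned bases and had no 50-base word in common with any other locus, so that any stretch of this length tells them apart. With the eIF4G genes summed, CDC33 stood 2.85-fold, PAB1 2.41-fold and the summed eIF4A genes 2.43-fold above them per kb. Per kb the scaffold was thus the lowest transcript of the cap-binding complex. In mean CPM not divided by length the order turned only in part. PAB1 was at 1033, the summed eIF4A genes at 713.7, the summed eIF4G genes at 691.5 and CDC33 at 451.4. The scaffold thus passed CDC33 but not PAB1 or eIF4A. TIF4631 alone (529.6) and TIF3 (499.7) were then also above CDC33.

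The 5 genes of eIF3, the large factor that organises the scanning complex, fell into a higher and a lower set. TIF34 (eIF3i) at 8.93 and TIF35 (eIF3g) at 8.73 lay above PRT1 (eIF3b) at 7.80, RPG1 (eIF3a) at 7.77 and NIP1 (eIF3c) at 7.52. The highest was 2.67-fold the lowest. The higher set was also the shorter one, with coding lengths of 1044 and 825 bases against 2292, 2895 and 2439. Without division by length the range over the 5 genes shrank from 1.42 to 0.85 on the log2 scale and the order changed, with RPG1 highest at a log2 mean CPM of 9.31 and TIF35 lowest at 8.46. Across the 25 initiation factors the per-kb level fell with coding length (Spearman's rho -0.68, Pearson's r -0.706 with log2 length). Over all protein-coding genes the same correlations were -0.324 and -0.305. These correlations are across genes of the same libraries, and length enters both axes; the part of untranslated ends in them was not tested.

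Of the factors that choose the start codon, SUI1 (eIF1, chromosome XIV, 187170 to 187496, minus strand) reached a per-kb level of 10.43, the highest of the initiation factors on this scale. It was 2.26-fold TIF11 (eIF1A, 9.26) and 3.88-fold TIF5 (eIF5, 8.48), which activates GTP hydrolysis by eIF2. FUN12, encoding eIF5B, which joins the ribosomal subunits, was the lowest of these at 7.54, with the longest coding sequence of any initiation factor, 3009 bases. SUI1 has the shortest coding sequence of all 40 genes, 327 bases. In CPM not divided by length, SUI1 and FUN12 were at 8.82 and 9.13 on the log2 scale, so their order turned.

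Per kb, the genes of eIF2 were higher than those of its exchange factor eIF2B. For eIF2, SUI3 (beta) was at 8.96, SUI2 (alpha, the subunit that the kinase Gcn2 phosphorylates) at 8.49 and GCD11 (gamma, which binds GTP and the initiator tRNA) at 7.88. The regulatory subunits of eIF2B were GCN3 (alpha) at 6.76, GCD7 (beta) at 6.83 and GCD2 (delta) at 6.54. Its catalytic subcomplex was GCD1 (gamma) at 6.86 and GCD6 (epsilon) at 6.51. Every gene of eIF2 lay above every gene of eIF2B, and the lowest gene of eIF2 was 2.04-fold the highest of eIF2B. The medians differed 3.31-fold. The 5 genes of eIF2B were the most even of the complexes per kb, with a range of 1.27-fold across coding lengths of 918 to 2139 bases. The evenness depended on the scale: without division by length their log2 range widened from 0.34 to 1.01, and that of eIF2 narrowed from 1.07 to 0.37. The median per-kb level of eIF3, 7.80, lay between those of eIF2 and eIF2B. Without division by length eIF3 was highest, with a median log2 mean CPM of 8.99 (PRT1) against 8.55 for eIF2 (GCD11) and 7.51 for eIF2B (GCD2).

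The genes of elongation and eIF5A spanned the whole range of the list, from HEF3 at 2.57 to HYP2 at 12.61, and several come in pairs. In 3 pairs both genes encode the same protein from nearly the same DNA. The coding sequences of TEF1 and TEF2 (eEF1A) differed at 2 of 1377 bases, those of EFT1 and EFT2 (eEF2) at 4 of 2529, and those of the eIF4A genes TIF1 and TIF2 at 6 of 1188. All of these differences were synonymous. The windows below are 60-base stretches of the R64 reference that hold the most differences within each pair, printed 5′ to 3′ on the coding strand with the differing bases in capitals, to show how little separates the copies. TIF1 is at chrXI:555183-555242 (plus) and TIF2 at chrX:154436-154495 (minus). TEF1 is at chrXVI:701326-701385 and TEF2 at chrII:478403-478462, both plus. EFT1 is at chrXV:575515-575574 and EFT2 at chrIV:1243647-1243706, both plus.
TIF1: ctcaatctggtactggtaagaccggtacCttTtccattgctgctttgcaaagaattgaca
TIF2: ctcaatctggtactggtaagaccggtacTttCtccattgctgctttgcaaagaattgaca
TEF1: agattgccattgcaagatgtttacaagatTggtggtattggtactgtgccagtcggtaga
TEF2: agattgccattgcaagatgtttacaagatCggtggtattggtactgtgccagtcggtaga
EFT1: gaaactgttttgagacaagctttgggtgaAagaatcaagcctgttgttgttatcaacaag
EFT2: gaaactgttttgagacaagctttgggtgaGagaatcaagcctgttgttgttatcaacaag

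These 6 genes were the only ones of the 40 with words in common with other loci. Of their 50-base words, 84.9% (TIF1 and TIF2), 92.5% (TEF1 and TEF2) and 91.9% (EFT1 and EFT2) occurred more than once in the genome. With 100-base words the shares were 74.1%, 86.5% and 83.5%. Among all protein-coding genes, 4.17% shared 10% or more of their 50-base words. How reads with several matches were counted is not given in the sources used here, so both the level of each copy and the split between copies are uncertain.

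TEF2 was at a per-kb level of 10.47 and TEF1 at 9.82, and summed they reached 11.18. EFT2 was at 7.16 and EFT1 at 6.40, and summed they reached 7.83. TIF2 was at 8.30 and TIF1 at 8.16, or 9.23 when summed. The nominal share of each pair that went to TEF2, EFT2 and TIF2 was 61.1%, 62.8% and 52.5%. The sum for eEF2 thus lay 5.40-fold below YEF3 and 10.2-fold below the sum for eEF1A. Divided by the number of 50-base words found once in the genome instead of the whole length, the levels became 10.06 for EFT1, 10.82 for EFT2, 10.94 for TIF1, 11.09 for TIF2, 13.60 for TEF1 and 14.25 for TEF2. This second scale would be the fitting one if shared reads had been discarded and reads were about 50 bases long, which was not tested. The read length that the authors state for their yeast DNA libraries is 100 bases. On it TIF1 and TIF2 lay above CDC33 at 9.57, and TEF1 and TEF2 above HYP2 at 12.76. On it EFT1 and EFT2 summed to 11.49, above the 10.28 of YEF3, so the place of eEF2 below eEF3 turned with the scale. The values of TEF1 and TEF2 on this scale rest on 100 single-copy words each. It was not computed for 100-base words, of which a smaller share was in common, so these orders may change with word length.

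The partners of eEF1A have no such copies. EFB1, the exchange factor that recharges eEF1A (chromosome I, 142174 to 143160, plus strand, 2 coding exons), was at 11.03. The genes for its companion eEF1B gamma, TEF4 and CAM1, were at 9.61 and 8.81. TEF4 was 1.74-fold higher and supplied 63.4% of the pair's CPM, and together they were at 10.27. All 5 genes of eEF1 lay in the highest 10% of genes. EFB1 and TEF4 were also the only members with an intron in the coding region, and the introns hold the small nucleolar RNA genes SNR18 and SNR38. Coding introns were annotated for 5.01% of protein-coding genes.

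YEF3, the gene of eEF3, was at a per-kb level of 10.26. It had the highest mean CPM of the 40 genes, 3845, over a coding sequence of 3135 bases. Its paralog HEF3 has the same coding length, the longest of the list, and was at 2.57, with a mean CPM of 18.6. YEF3 was thus 206-fold higher. HYP2, encoding eIF5A, had the highest level of the list per kb of coding length, 12.61, which placed it at rank 14 of the protein-coding genes on that scale. ANB1 encodes the other form of eIF5A and was at 2.90, with a mean CPM of 3.54, so HYP2 was 836-fold higher. Any prior count in the authors' average would raise such low values most, and the counting error of ANB1 is unknown.

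The sequences of these pairs are shown because every 50-base stretch distinguishes them, whereas few such stretches distinguish the copies above. HYP2 and ANB1 matched at 90.9% of 474 bases and YEF3 and HEF3 at 74.5% of 3135, and neither pair had a 50-base word found elsewhere. The longest run without a difference was 43 bases in the first pair and 41 in the second. The most divergent 60-base windows follow with differing bases in capitals. HYP2 is at chrV:85953-86012 (plus) and ANB1 at chrX:525045-525104 (minus). YEF3 is at chrXII:636928-636987 and HEF3 at chrXIV:606467-606526, both plus.
HYP2: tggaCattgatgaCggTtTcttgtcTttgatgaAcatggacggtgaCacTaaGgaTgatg
ANB1: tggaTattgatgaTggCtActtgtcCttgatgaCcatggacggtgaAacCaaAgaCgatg
YEF3: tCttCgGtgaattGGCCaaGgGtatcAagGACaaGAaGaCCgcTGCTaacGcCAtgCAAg
HEF3: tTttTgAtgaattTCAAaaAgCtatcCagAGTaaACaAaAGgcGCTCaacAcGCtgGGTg
Of the 41 codons that differ between HYP2 and ANB1, 26 were synonymous. Between YEF3 and HEF3, 636 of 1045 codons differed and 467 of those were synonymous.

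**Figure D2:**
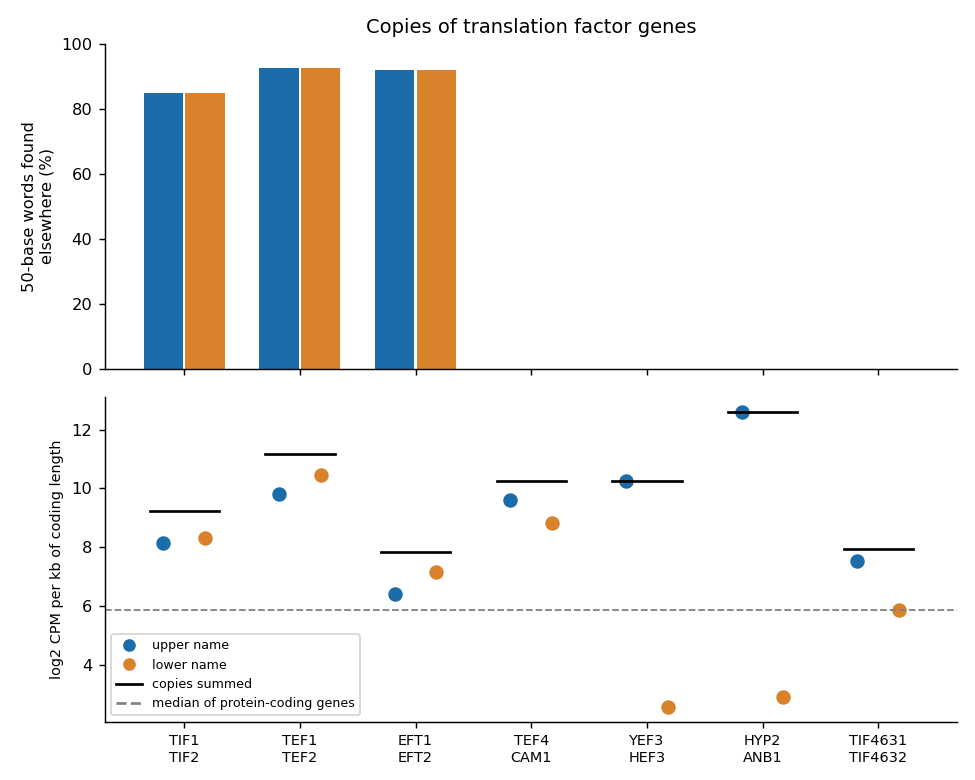
Upper panel: share of each gene's 50-base words that occur elsewhere in the R64 genome (%). Lower panel: per-kb level (log2 CPM per kb of coding length) of each copy as a point and of the copies summed as a black line. The copies of each of the 3 pairs with shared words lie within 0.76 of each other on the log2 scale, a split that is uncertain because reads may be shared. Of the pairs with no shared words, YEF3 exceeds HEF3 by 7.69 and HYP2 exceeds ANB1 by 9.71. TEF4 exceeds CAM1 by 0.80 and TIF4631 exceeds TIF4632 by 1.65.

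ANB1 is known as a gene of low oxygen that the repressor Rox1 keeps off in aerated cells. The core of the Rox1 site, ATTGTT, was sought on both strands from 250 bases before to 50 bases after the start codon. It occurred in 2 places before ANB1, beginning 214 and 193 bases upstream, and in none for HYP2. The 150 bases from 250 to 101 before each start codon are printed with the core in capitals, HYP2 from chrV:85426-85575 (plus) and ANB1 from chrX:525482-525631 (minus).
HYP2: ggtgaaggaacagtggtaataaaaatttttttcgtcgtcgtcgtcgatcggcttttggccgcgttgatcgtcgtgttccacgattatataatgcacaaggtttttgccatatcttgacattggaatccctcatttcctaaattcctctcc
ANB1: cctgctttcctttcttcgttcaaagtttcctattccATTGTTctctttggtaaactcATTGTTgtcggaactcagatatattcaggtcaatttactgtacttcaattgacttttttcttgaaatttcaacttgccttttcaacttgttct
The core is common, present in 34.8% of the same windows of all protein-coding genes and in 11 of the 40 (27.5%), YEF3 and HEF3 included. A match is therefore only a description of the sequence. The match of HEF3 began 13 bases into its coding sequence and not upstream of it. The letters TATAAA occurred in 14 of the 40 windows (35%) and in 44.7% of all windows. A core of the Rap1 site, ACCCNNACA, was in 0 of the 40 windows, in 8.76% of those of the ribosomal protein genes and in 2.79% of all. Neither this core nor the window was checked against known Rap1 sites. With so low a share over all genes, 0 of 40 does not show that these genes lack Rap1 sites.

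The release factors were close in level. SUP45 (eRF1) was at 8.47 and SUP35 (eRF3, the protein behind the yeast prion [PSI+]) at 7.91, a difference of 1.47-fold per kb, while their log2 mean CPM values of 8.86 and 8.96 stood in the opposite order. RLI1, an iron-sulphur ATPase that splits the ribosome after termination, was at 7.07, or 2.64-fold below SUP45. STM1, a protein that binds idle ribosomes and preserves them, was far higher at 10.92, above 98.1% of protein-coding genes.

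The sequence context of the start codon, which several of these factors read, was compared between genes. Yeast genes favour A at the position 3 bases before the start codon. It was A in 32 of the 40 genes (80%), in 83.9% of 137 ribosomal protein genes, in 81.1% of all genes in the highest 10% and in 61.1% of all protein-coding genes. The 8 others were PRT1 and SUI1 with C, STM1 with T, and SUI3, GCD11, GCD2, GCD1 and CAM1 with G. SUI1 and STM1, with the less usual bases C and T, had the per-kb levels of 10.43 and 10.92 given above. The product of SUI1, eIF1, is itself a factor that rejects start codons in weak context. The contexts of SUI1 (chrXIV:187491-187508, minus), STM1 (chrXII:440455-440472, plus) and, for comparison, HYP2 (chrV:85664-85681, plus) and TEF2 (chrII:477659-477676, plus) run from 12 bases before the start codon to the second codon, with the base at that position and the start codon in capitals.
SUI1: gaagcaaatCgtATGtcc
STM1: attttattcTcaATGtcc
HYP2: ctcatatatAcaATGtct
TEF2: aattaactaAacATGggt

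Codon use was read as the codon adaptation index, which is 1 when a gene uses only the codons that the ribosomal protein genes prefer. The median index was 0.428 for the 40 genes, 0.391 for the initiation factors, 0.812 for elongation with eIF5A and 0.197 for all protein-coding genes. Within the list it ran from 0.191 for GCN3 to 0.883 for TEF2. Index and per-kb level rose together across the 40 genes (Pearson's r 0.419, Spearman's rho 0.503) and across 5569 protein-coding genes without the ribosomal proteins (0.498 and 0.431). These correlations are across genes that share libraries, and genes are not independent replicates. Without the 6 genes that share words, the values for the remaining 34 were 0.519 and 0.625.

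Against a line through those 5569 genes, an addition made after the levels were seen, the 6 genes with shared words all lay low. Their distances from the line on the log2 scale were -4.98 for EFT1, -4.20 for EFT2, -2.94 for TIF1, -2.78 for TIF2, -2.01 for TEF1 and -1.39 for TEF2. ANB1, with an index of 0.747, was at -7.73 and HEF3, with an index of 0.228, at -3.38. ANB1 thus paired the codon use of an abundant gene with a very low transcript level, whereas the index of HEF3 lay nearer the all-gene median of 0.197. At the other end SUI1, with an index of 0.294, was at 3.88, ahead of TIF35 at 1.93, SUI3 at 1.79 and TIF34 at 1.72. Some other genes with no shared word also lay below the line, among them YEF3 at -0.96, RLI1 at -0.89 and DED1 at -0.35. Most such genes lay above it. Whether shared reads lowered the 6 genes was not tested.

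**Figure D3:**
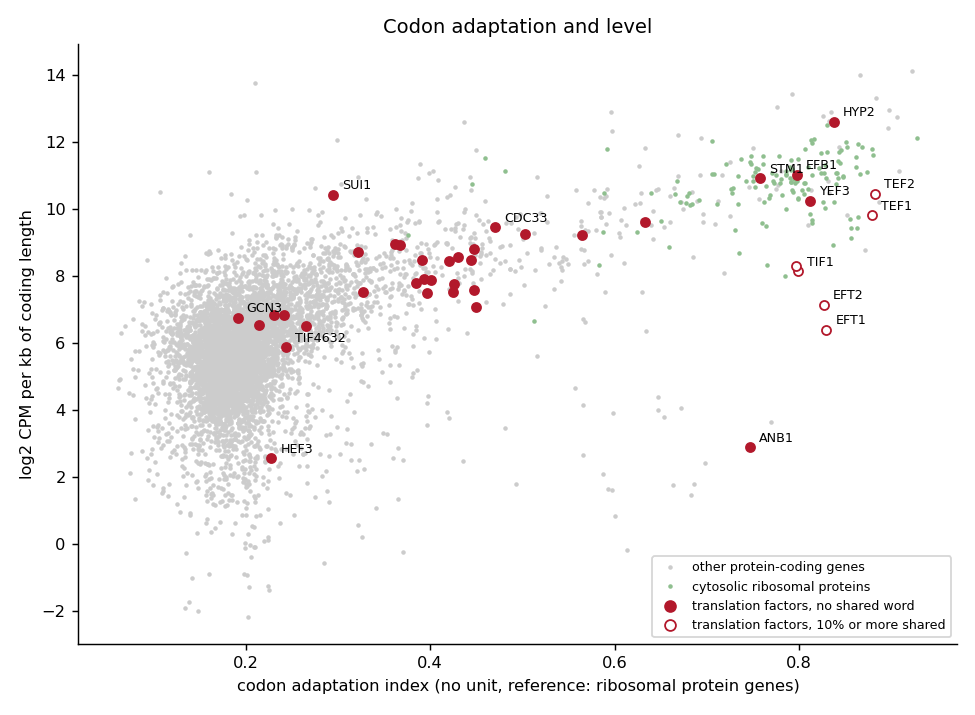
Codon adaptation index (no unit) against per-kb level (log2 CPM per kb of coding length), 1 point per gene: translation factors in red, open where 10% or more of the 50-base words are shared, ribosomal proteins in green and other protein-coding genes in grey. EFT1 and EFT2 lie well under genes of like index such as YEF3, and ANB1 at 2.90 lies alone under HYP2 at 12.61.

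Beside other genes of translation, the median per-kb level of the 40 factors lay below that of the cytosolic ribosomal proteins and above those of the remaining lists. Single genes of the lists overlapped. These medians depend on coding length, with which the per-kb level fell over all protein-coding genes. Without division by length the median of the 40 factors was 8.78, and those of the other lists were not computed. In mean CPM not divided by length, the 137 ribosomal protein genes made up 12.2% of all features and the 40 factors 2.61%. The 137 ribosomal protein genes had a median per-kb level of 10.89, and 134 of them were in the highest 10% of genes. They ran from 6.65 for RPL15B to 12.51 for RPS31, so that HYP2 at 12.61 was nominally above the last of these, and 52 shared 10% or more of their 50-base words. A list of 22 other cytosolic factors and regulators had a median of 6.86, with 4 in the highest 10%. The 7 genes whose products modify eIF5A or eEF2 had a median of 6.35, with 0 in the highest 10%. The 8 translation factors of mitochondria had a median of 5.07, with 0 in the highest 10%. Of these, TUF1, the mitochondrial counterpart of eEF1A, was highest at 8.33, and MEF2, an elongation factor G gene, was lowest. No test of these differences was made, since each gene has a single value and genes are not replicates.

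**Figure D4:**
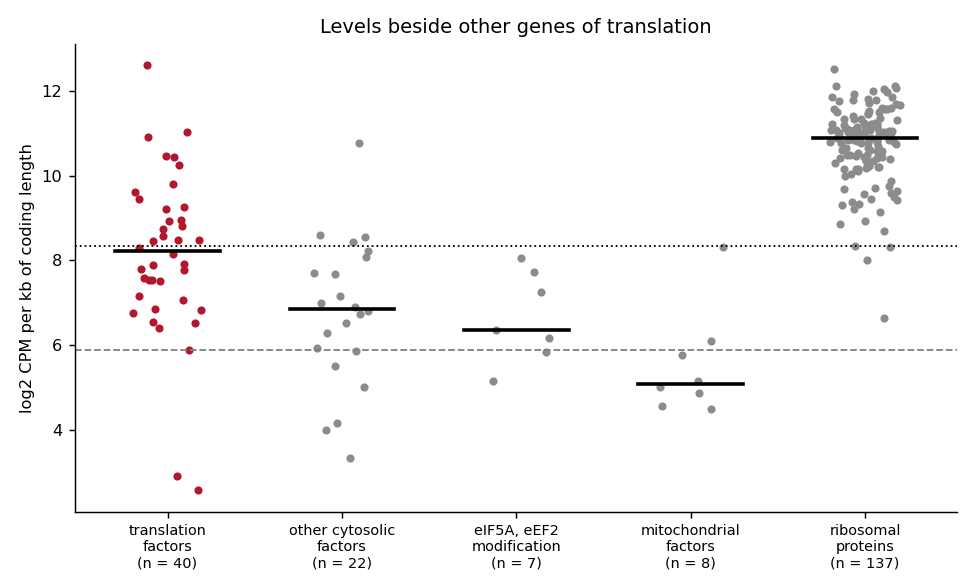
Per-kb level (log2 CPM per kb of coding length) of each gene in 5 lists of translation genes, with the median of each list as a black bar, the median of all protein-coding genes as a dashed line and the start of the highest 10% as a dotted line. The medians step from 10.89 for ribosomal proteins through 8.23 for the 40 translation factors to 5.07 for mitochondrial factors.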

How the data were processed

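RNA-Seq libraries (3 heat shock, 3 optimal growth) were made from polyadenylated RNA with a stranded kit. Reads had been mapped to a repeat-masked genome with kalign, and the authors ran Trinity's edgeR pipeline on them; the labels name builds R64 and sacCer3. Each feature's log2 mean CPM over both groups was taken as deposited. The counter, its use of strand, its treatment of reads with several matches, the low-count filter and the prior count are not given in the sources used here. The deposited table also holds the authors' fold change, p-value and adjusted p-value for heat against norm, which were not used. Read depth per library is unknown.

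Of 5793 features, 5715 matched a locus tag of the RefSeq R64 annotation, 76 a symbol and 2 neither. Mean CPM was divided by coding length; 50-base words were counted in the genome on both strands; the codon adaptation index used 137 ribosomal protein genes. No annotated gene overlapped the coding exons of a member (0 of 40). Sequences came from RefSeq R64. All members, and the highest and lowest gene of each other list, were eligible to be named; other genes of these lists were named after their values were seen. Members and lists were chosen with earlier results of these data known. Alternatives changed the length used, the copies, the genes ranked, the word length and the codon reference. The scripts were tested on simulated data. Python 3.11.15, numpy 2.4.6, scipy 1.17.1, biopython 1.88 and matplotlib 3.10.9 were used.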

Additional observations from a re-analysis of the deposited data

How the results depend on the processing

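The median level of the 40 genes (8.23) was 8.78 without division by length, 8.60 per single-copy 50-base word, 8.47 with the pairs TIF1 and TIF2, TEF1 and TEF2, and EFT1 and EFT2 summed, and 8.0 with 200 bases added to every length, a choice made after the data were seen. The log2 range within eIF3, eIF2 and eIF2B was 0.85, 0.37 and 1.01 without length, 1.46, 1.11 and 0.35 per single-copy word, and 1.28, 0.94 and 0.31 with the added bases. The count in the highest 10% of genes (19 of 40) was 27 without length, 23 per single-copy word, 20 with the added bases and 19 of 37 with the pairs summed. It was 19 of 40 when genes under a log2 mean CPM of 1 were left out of the ranking, and when all features were ranked. With 100-base words 6 genes again shared 10% or more. Pearson's r of codon index and level was 0.40 with glycolysis genes as the codon reference and 0.52 without the genes that share words. No paired analysis was possible because all libraries are merged into 1 mean for each gene. For the same reason DESeq2 size factors, a fit without a low-count filter and leaving out each replicate were not run.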

Other observations

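Among the 7 modification genes listed, those for hypusine, the modified residue on which eIF5A depends, were higher than those for diphthamide, the modified residue of eEF2. The list does not hold every gene of diphthamide synthesis. DYS1 and LIA1, which add hypusine, had per-kb levels of 7.73 and 8.05. The listed diphthamide genes DPH1, DPH2, DPH5, DPH6 and RRT2 had 5.83, 6.35, 7.26, 5.17 and 6.16. The codon adaptation index was 0.502 for DYS1 and 0.465 for LIA1, and 0.274 for DPH5, the highest of the listed diphthamide genes.

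Among other cytosolic factors, GCN4, a transcription factor whose mRNA is translated when eIF2 is phosphorylated, was highest, at a per-kb level of 10.76. The kinase gene GCN2 was at 4.16 and its activator genes GCN1 and GCN20 at 5.01 and 6.75. DED1 was 12.1-fold its paralog DBP1. The anti-association factor TIF6 was at 8.56 and HCR1, a loosely bound subunit of eIF3, at 8.44, both within the range of the core eIF3 genes. SRO9, an RNA-binding protein gene, was lowest of the list, at 3.33 with a codon adaptation index of 0.349. No shared 50-base word was found in any of these genes.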
